A study of Homo sapiens with 12 samples.

Results

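Decitabine-treated K562/ADR cells were compared with untreated K562 cells, to ask how near the treated drug-resistant line came to its drug-sensitive parent and which differences appeared after the drug. The comparison used 6 of the 12 arrays of the study, chosen by their labels, 3 of treated K562/ADR and 3 of untreated K562, and 18417 genes were tested. K562 is an established human line from a chronic myeloid leukaemia, and K562/ADR is its adriamycin-resistant subline, kept in 50 nM adriamycin (doxorubicin, an anthracycline). Treated cells of either line received 5 nM decitabine for 72 hours. The labels do not state what untreated cells received, whether adriamycin stayed in the medium during treatment, whether K562/ADR is 1 clone, or that replicates are separate cultures. The p-values therefore reflect nothing more than the spread among these samples, which may be technical. The 3 untreated K562/ADR arrays gave the starting difference between the lines, and the 3 treated K562 arrays are given for reference. The line, its adriamycin and decitabine all differ between the compared groups, and their parts cannot be told apart in this comparison alone.

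Decitabine is a deoxycytidine analogue that cells phosphorylate and incorporate into DNA, where it binds DNA methyltransferases covalently, so that methylation is lost as cells divide. Genes kept silent by promoter methylation, many of the germline among them, are classic responders. Resistance of K562 sublines to anthracyclines is known to rest largely on P-glycoprotein, the product of ABCB1 and a pump that exports such drugs, and the declared purpose of the study was to learn how decitabine acts on it. K562 cells carry BCR-ABL1 and stand between the erythroid and megakaryocytic lineages.

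Values were deposited log2 intensities, and array medians lay between 4.96 and 5.01. All 8 measured markers of the K562 line (of 11 fixed, among them GATA1, TAL1 and TFRC) were above 3.39, the highest lower quartile of any array, in both groups. At or below that level a group mean is called dim here, and a fold change from or to it is given as a lower bound, computed against 3.39. Lymphoid, fibroblast and endothelial markers averaged between 3.97 and 4.51 per array in both groups, and the largest difference among them was in CD3D, a T-cell receptor subunit, at 6.91 in treated K562/ADR and 4.67 in untreated K562. The 9 epithelial markers were all above 3.39 in both groups, with array averages of 6.77 to 6.84 in either group. Their median level was 6.90 in untreated K562 and 6.03 in treated K562/ADR, with 2 called higher and 2 lower. The 6 myeloid markers were also all above 3.39. They averaged 5.01 to 5.51 per array in untreated K562 and 5.4 to 5.5 in treated K562/ADR. Of the lymphoid, fibroblast and endothelial markers 4 were dim in both groups, and their part in the results was not tested. Untreated K562 replicate 3 stood apart: its root mean square (RMS) difference from the other arrays of its group was 0.227, against 0.137 to 0.190 for the other 11 arrays. When this array was left out, 522 genes were higher by at least 1 in treated K562/ADR. It lay on the side of treated K562/ADR from the other untreated K562 arrays in 405 of the 522, with a median shift of 0.19 over all 522, where the whole difference had a median of 1.46. The same count was 203 of 458 for replicate 1 and 173 of 452 for replicate 2, each left out in turn. Among the lower genes it was 210 of 250 for replicate 3 (median -0.22 out of -1.22), 46 of 186 for replicate 1 and 74 of 195 for replicate 2. The main counts and many of the named results are therefore given with and without it.

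By number of called genes, treated K562/ADR differed more from untreated K562 than untreated K562/ADR did. The limma fit called 6291 genes between treated K562/ADR and untreated K562 (34.2% of those tested; adjusted p under 0.05), 3231 higher (17.5%) and 3060 lower (16.6%), against 4735 (25.7%) between the untreated lines, 2133 higher (11.6%) and 2602 lower (14.1%). With a change of at least 1 on the log2 scale, 687 genes (3.73%) were called, 480 higher (2.61%) and 207 lower (1.12%), against 439 (2.38%) before treatment, 257 higher (1.4%) and 182 lower (0.988%). Between treated and untreated K562/ADR 2694 genes were called (14.6%), 1780 higher (9.66%) and 914 lower (4.96%); the number was 1653 without treated K562/ADR replicate 3, and 1706 and 1725 without untreated K562/ADR replicates 1 and 2. Without untreated K562 replicate 3 the counts were 6349 in all (34.5%), and 772 by at least 1. The balance of directions depended on scaling. After median centring, which shifted the median of all genes from -0.02 to -0.11, 34.2% of the called genes were higher rather than 51.4%, and 58.7% rather than 69.9% of those changed by at least 1.

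The RMS distance over all genes to the untreated K562 mean was 0.471, 0.469 and 0.480 for the treated K562/ADR arrays and 0.424, 0.398 and 0.402 for the untreated K562/ADR arrays. The groups did not overlap, and the means were 0.473 ± 0.006 and 0.408 ± 0.014 (SD, n = 3; two-sided exact permutation p = 0.1, the smallest that 3 arrays against 3 allow). Without untreated K562 replicate 3 the means were 0.498 and 0.425. With the median absolute difference in place of the RMS, the groups overlapped (0.190 and 0.172; exact permutation p = 0.4), because untreated K562/ADR replicate 1, at 0.202, lay above every treated array. Treated K562 lay at an RMS of 0.336 to 0.386 from untreated K562.

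**Figure D1:**
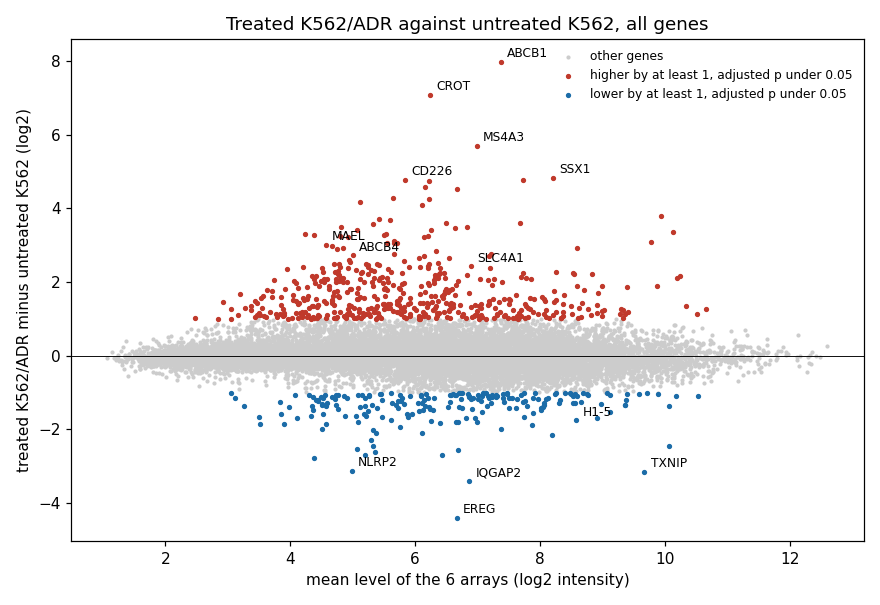
Difference between treated K562/ADR and untreated K562 (log2, y axis) against the mean level of the 6 arrays (log2 intensity, x axis), 1 point per gene for 18417 genes. Red points (480) were higher and blue points (207) lower by at least 1 with an adjusted p under 0.05; ABCB1 and CROT stand highest and EREG lowest.

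Most of the large starting differences were still present after decitabine. Of the 439 genes that differed by at least 1 between the untreated lines, 368 still differed in the same direction by at least 1 in treated K562/ADR (246 higher, 122 lower). Of these 368, 236 had no called response to decitabine in K562/ADR and 132 had one, where 14.6% of all genes had one. Another 58 of the 439 were still called in the same direction by less than 1 (10 higher, 48 lower). The last 13 were no longer called different from untreated K562 (1 had started higher, 12 lower). The 13 became 6 without untreated K562 replicate 3 or without untreated K562/ADR replicate 1, 8 without untreated K562/ADR replicate 2 and 7 after median centring. Of the 13, 10 had a called response to decitabine towards untreated K562 and are described below as genes that reached it. The other 3, KLRC4-KLRK1, LOC100134868 and SNORD116-6, had none and are named only to complete the 13. Counted across these divisions, 61 genes had a called response towards untreated K562 with a difference still called, 30 of them still by at least 1 and 31 by less. No gene with a starting difference of at least 1 was called on the opposite side, with 1 exception. ANXA3 was called 0.29 higher with the replicate number as a block (adjusted p = 0.0131) or with trended, robust variances (adjusted p = 0.0488). Without untreated K562 replicate 3, LYZ and ANXA3 were called lower at the start (-0.61 and -0.98) and higher after decitabine (1.16 and 0.41). Their starting differences were then under 1, so they fell outside this count. Over the 257 genes that started higher the median size of the difference went from 1.51 to 1.95, and over the 182 that started lower from 1.29 to 1.19. These counts compare contrasts that share arrays, so they describe these 9 arrays and are not separate evidence.

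ABCB1 showed the largest difference of all genes. It read 3.30, 3.24 and 3.63 on the untreated K562 arrays and 11.32, 11.36 and 11.41 on the treated K562/ADR arrays. Every K562 array was near the dim level and every treated K562/ADR array far above it, an at least 251-fold difference (7.98 ± 0.15 log2, SE; adjusted p = 9.67e-13). Untreated K562/ADR read 11.22 on average, and decitabine changed ABCB1 there by 0.15 ± 0.15 (adjusted p = 0.567; 95% interval -0.18 to 0.47). Treated K562 read 3.46. The interval leaves room for a fall of at most 0.18 in K562/ADR.

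The genes around ABCB1 on chromosome 7q21 stayed high with it. Of 33 measured neighbours 26 were higher and none lower (17.5% of all genes were higher and 16.6% lower), with a median difference of 1.52 against -0.02 for all genes. CROT, a peroxisomal carnitine acyltransferase whose gene overlaps ABCB4 at its end, read 2.87, 2.67 and 2.59 in untreated K562 and 9.87, 9.77 and 9.71 in treated K562/ADR, at least 83.8-fold apart (7.08 ± 0.08; adjusted p = 1.08e-14). No arrays overlapped, and decitabine had raised CROT in K562/ADR by a further 0.53 ± 0.08 (adjusted p = 0.00121). TMEM243, a small membrane protein, was 4.78 ± 0.08 higher, TP53TG1, a non-coding RNA, 4.57 ± 0.14 higher and ELAPOR2 3.79 ± 0.07 higher.

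Within that run, ABCB4 and RUNDC3B moved farther away with decitabine. ABCB4, the phospholipid transporter beside ABCB1, read 3.45, 3.58 and 3.89 in untreated K562, 5.10, 4.91 and 4.89 in untreated K562/ADR and 6.21, 6.45 and 6.44 in treated K562/ADR. The 3 groups were fully separated, and the difference grew from 1.33 to 2.72 ± 0.12 (adjusted p = 4.31e-09), a 6.61-fold difference. RUNDC3B, whose gene overlaps that of ABCB1, went from 3.59 ± 0.35 (SD, n = 3) in untreated K562 and 4.43 in untreated K562/ADR to 6.00 ± 0.22 in treated K562/ADR (2.40 ± 0.22; adjusted p = 2.77e-06). CYP51A1, a sterol demethylase of the same region, went the other way, from 1.09 above untreated K562 to 0.71 ± 0.07 above it (adjusted p = 6.82e-06).

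Besides ABCB1 and ABCB4, 22 ATP-driven transporters of the efflux list were measured. Of these 4 were higher and 6 lower, with a median of -0.04 (3 and 7 after median centring). Over all genes 17.5% were higher and 16.6% lower. ABCG2, a pump for many cytostatic drugs, read 4.42, 4.34 and 4.49 in untreated K562 and 3.64, 3.65 and 3.69 in treated K562/ADR. Every treated array was lower (-0.75 ± 0.10; adjusted p = 7.33e-05), yet ABCG2 had been dim in untreated K562/ADR, at 3.20, and its rise there with decitabine was called (adjusted p = 0.0102). ABCC1, another anthracycline pump, was not called (0.17 ± 0.07; adjusted p = 0.0791), but was called without untreated K562 replicate 3 (0.20; adjusted p = 0.0496). TAP1, a peptide transporter for antigen presentation, was 0.73 ± 0.16 higher and its partner TAP2 differed by -0.54 ± 0.09.

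**Figure D2:**
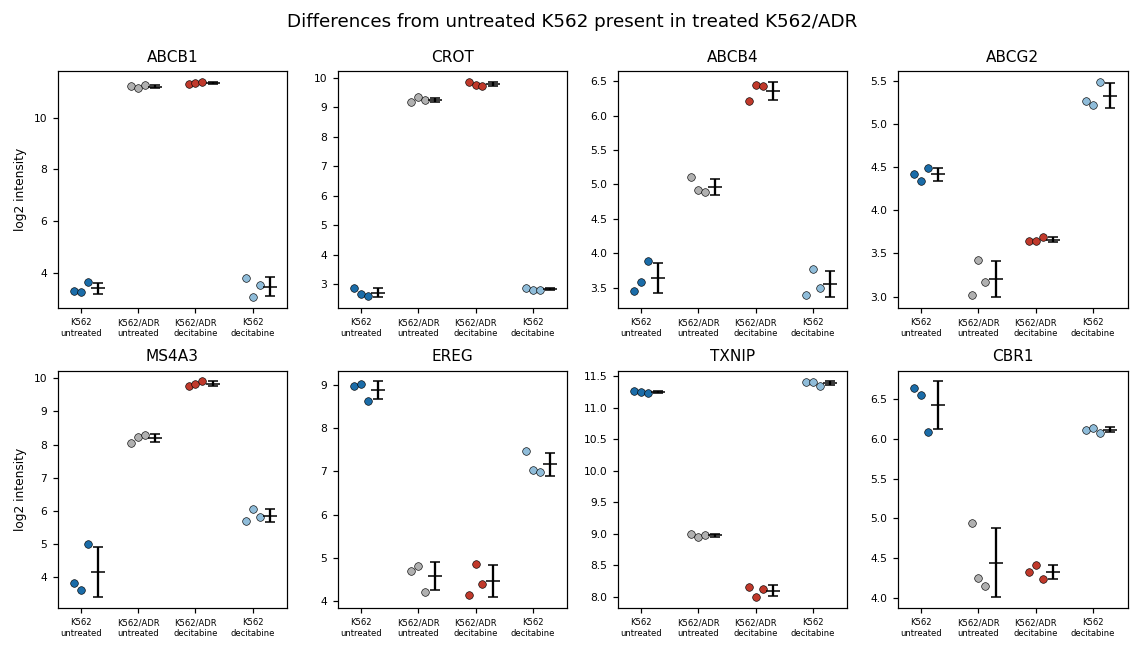
Levels (log2 intensity, y axes of different range) of 8 genes that differed between treated K562/ADR and untreated K562, in the 4 groups named on the x axis; circles are arrays and bars the mean ± SD (n = 3). ABCB1 stays between 11.17 and 11.41 in all 6 K562/ADR arrays, ABCB4 and MS4A3 stand higher after decitabine, and EREG, TXNIP and CBR1 stay low.

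Beyond 7q21, the largest differences were in a mixed group of membrane, blood-cell and germline genes. MS4A3, a myeloid membrane protein, read 3.82, 3.62 and 5.0 in untreated K562 and 9.78, 9.82 and 9.91 in treated K562/ADR. K562 replicate 3 was the highest of its group and still far below all treated arrays (5.69 ± 0.26; adjusted p = 4.29e-09; 6.12 without that array). CD226, an adhesion receptor of T and NK cells, read 3.28, 2.97 and 4.13 against 8.21, 8.15 and 8.33 (4.77 ± 0.21; adjusted p = 2.86e-09). SSX1, a cancer-testis gene whose near-identical relatives make its cluster uncertain, read 5.76, 5.95 and 5.66 against 10.67, 10.46 and 10.72 (4.83 ± 0.09; adjusted p = 9.67e-13), and decitabine left it at -0.01 of its untreated K562/ADR level. SCIN, an actin-severing protein (4.74 ± 0.18), SPARC, a matrix glycoprotein (4.53 ± 0.12), F2RL2, a protease-activated receptor (4.29 ± 0.10), CA2, a carbonic anhydrase of red cells (4.25 ± 0.20), and SLCO4C1, an organic anion carrier (at least 14-fold), completed the 12 largest. Of these 12 genes, CROT, TMEM243, MS4A3 and CD226 also had a called rise with decitabine in K562/ADR.

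EREG, an EGF receptor ligand, was the gene with the largest loss in treated K562/ADR. It read 8.96, 9.02 and 8.63 in untreated K562 and 4.15, 4.86 and 4.40 in treated K562/ADR. The groups were far apart (-4.40 ± 0.20; adjusted p = 4.25e-09), and decitabine had changed EREG in K562/ADR by -0.11 (adjusted p = 0.767). Of 34 measured genes of ERK output 16 were lower and 4 higher, with a median of -0.14. Over all genes 16.6% were lower and 17.5% higher. Between the untreated lines 14 of the 34 were already lower and 4 higher (median -0.16). Decitabine lowered 4 of the 34 and raised 2 in K562/ADR. EGR1, an immediate early transcription factor, differed by -2.45 ± 0.25, SPRY2, a feedback inhibitor of receptor signalling, by -1.76 ± 0.12 and FOS by -1.19 ± 0.17. For EGR1, treated K562 read 9.22, untreated K562 11.29 and treated K562/ADR 8.84.

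TXNIP moved farther from untreated K562. This arrestin-like inhibitor of glucose uptake and thioredoxin read 11.27, 11.25 and 11.23 in untreated K562, 9.0, 8.95 and 8.98 in untreated K562/ADR and 8.16, 8.0 and 8.13 in treated K562/ADR. The 3 groups stepped down without overlap, to an 8.89-fold difference (-3.15 ± 0.06; adjusted p = 1.67e-12). Other large losses were in NLRP2, an inflammasome-related protein (-3.12 ± 0.11), SDC2, a heparan sulfate proteoglycan (-2.55 ± 0.10), PRKCH, a protein kinase C (-2.53 ± 0.10), and DACH1, a transcriptional corepressor (-2.44 ± 0.13). COBLL1 (-2.70 ± 0.14) and HTR1F, a serotonin receptor (-2.61 ± 0.16), were also among the 12.

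KRAB zinc finger genes of chromosome 19p12, repressors that bind retroelements, stayed low in part. Of 32 measured 15 were lower and 2 higher between the untreated lines, with a median of -0.35. In treated K562/ADR 12 were lower and 3 higher, with a median of -0.14 and a called share of 46.9% against 34.2% of all genes. Decitabine raised 4 of the 32 in K562/ADR and lowered none (median 0.17), where it raised 9.66% of all genes and lowered 4.96%. The K562/ADR count alone does not set them apart. In K562 decitabine raised 20 of the 32 and lowered none (median 0.51), where it raised 14.6% of all genes and lowered 15.7%. The largest losses were still large. ZNF730 differed by -3.13 before and -2.71 ± 0.20 after decitabine, ZNF90 by -2.32 and -1.94 ± 0.16, and ZNF737 was dim in treated K562/ADR, at least 5.18-fold lower. None of these 3 had a called response to decitabine in K562/ADR (adjusted p = 0.183, 0.128 and 0.632).

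Of 19 measured anthracycline targets and metabolic genes 1 was higher and 4 lower (1 and 7 after median centring), a called share of 26.3% against 34.2% of all genes. CBR1, a carbonyl reductase that reduces doxorubicin to doxorubicinol, was lower by -2.09 ± 0.18 (adjusted p = 1.60e-06; 6.42 in untreated K562, 4.45 in untreated and 4.33 in treated K562/ADR). TOP2B, a topoisomerase trapped by anthracyclines, differed by -0.66 ± 0.10, while TOP2A, the other target, was not called (0.21 ± 0.08; adjusted p = 0.0573). SLCO1A2, an organic anion carrier, was the single higher member (1.69 ± 0.09), and decitabine had raised it by 0.73 in K562/ADR.

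For decitabine itself, DCK, the kinase that activates it, differed by -0.17 ± 0.09 (adjusted p = 0.170), CDA, which deaminates it, by 0.09 ± 0.10 (adjusted p = 0.572), and SLC29A1, a nucleoside carrier, by 0.19 ± 0.07 (adjusted p = 0.0719; 0.24 and adjusted p = 0.0292 without untreated K562 replicate 3). Their 95% intervals ran from -0.36 to 0.02, from -0.13 to 0.30 and from 0.03 to 0.34. On the wider list of nucleoside carriers and nucleotide enzymes, 3 of 22 measured genes were higher and 9 lower (2 and 11 after median centring). Their called share was 54.55% against 34.2% of all genes. TYMS, thymidylate synthase, was lower by -0.68 ± 0.06, CTPS1, a CTP synthase, by -0.60 ± 0.08 and DCTPP1, a dCTP pyrophosphatase, by -0.61 ± 0.07, and TK1, a thymidine kinase, was higher by 0.70 ± 0.10.

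The targets of decitabine differed little. DNMT1, the maintenance methyltransferase, differed by -0.21 ± 0.06 (adjusted p = 0.0184), a call lost without untreated K562 replicate 2 (adjusted p = 0.0539), without treated K562/ADR replicate 3 (adjusted p = 0.0775) or with only the 6 arrays in the fit (adjusted p = 0.0583). DNMT3A, a de novo methyltransferase, was 0.45 ± 0.10 higher (adjusted p = 0.00307) and DNMT3B differed by -0.05 ± 0.08 (adjusted p = 0.726). Of 23 measured genes of the methylation machinery 6 were higher and 6 lower (4 and 8 after median centring). Their called share was 52.2% against 34.2% of all genes. IDH2, a mitochondrial isocitrate dehydrogenase, was 1.55 ± 0.15 higher and HELLS, a chromatin remodeller, differed by -0.62 ± 0.11.

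The 10 genes that reached untreated K562 had all started lower in K562/ADR. Reached means only that no difference was called, which does not show that a gene was equal to untreated K562. The 95% interval stayed below no difference for EFHC2 (-0.75 to -0.08), SMARCA1 (-0.54 to -0.01) and FAM111A (-0.46 to -0.03). For ANXA3 it stayed above (0.02 to 0.56). All treated K562/ADR arrays of EFHC2 and FAM111A lay below all untreated K562 arrays. CALB1, a calcium-binding protein, had the largest start. It read 8.99, 9.15 and 9.55 in untreated K562, 7.03, 7.13 and 7.09 in untreated K562/ADR and 8.94, 9.03 and 8.96 in treated K562/ADR. The treated arrays lay at or just below the lower edge of the K562 range, the starting difference of -2.15 shrank to -0.25 ± 0.12 (adjusted p = 0.138; 95% interval -0.51 to 0.01), and treated K562 read 10.77. NTS, the precursor of the peptide neurotensin, read 5.44, 5.63 and 6.09, then 3.87, 4.95 and 4.70, then 5.69, 5.64 and 6.19 in the same order of groups. Its treated arrays lay within the untreated K562 range or just above it (0.12 ± 0.24; adjusted p = 0.765; interval -0.40 to 0.65). SMARCA1, a chromatin remodelling ATPase, went from -1.20 to -0.28 ± 0.12 and EFHC2, a microtubule-associated protein, from -1.48 to -0.42 ± 0.16 (adjusted p = 0.104 and 0.0541).

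These 4 genes also met the definition without untreated K562 replicate 3, when 5 genes did, and the other 6 did not. The number was 4 without untreated K562/ADR replicate 1. LYZ, lysozyme, read 7.78, 7.86 and 9.57 in untreated K562 and 8.91, 8.93 and 9.10 in treated K562/ADR. All treated arrays lay between K562 replicate 3 and the other two, so LYZ was not called with that array (0.58 ± 0.34; adjusted p = 0.235) and was 1.16 higher without it (adjusted p = 5.29e-06). ANXA3, a calcium-dependent membrane-binding annexin, read 6.70, 6.92 and 7.14 in untreated K562, 5.61, 5.90 and 5.98 in untreated K562/ADR and 7.12, 7.17 and 7.36 in treated K562/ADR. It was not called with that array (0.29 ± 0.12; adjusted p = 0.0906) and was 0.41 higher without it (adjusted p = 0.0236). The cluster named MIR32, which does not measure the mature miRNA, went the other way (-0.46, adjusted p = 0.142, and -0.69, adjusted p = 0.0264, without it). TENT5C, a poly(A) polymerase (-0.26), CSF1, a macrophage growth factor (-0.16), and FAM111A, a protease that restricts viruses (-0.25), were not called with or without it, but their starting differences without it were under 1; CSF1 and FAM111A fall outside the naming rule and are given to complete the 10.

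**Figure D3:**
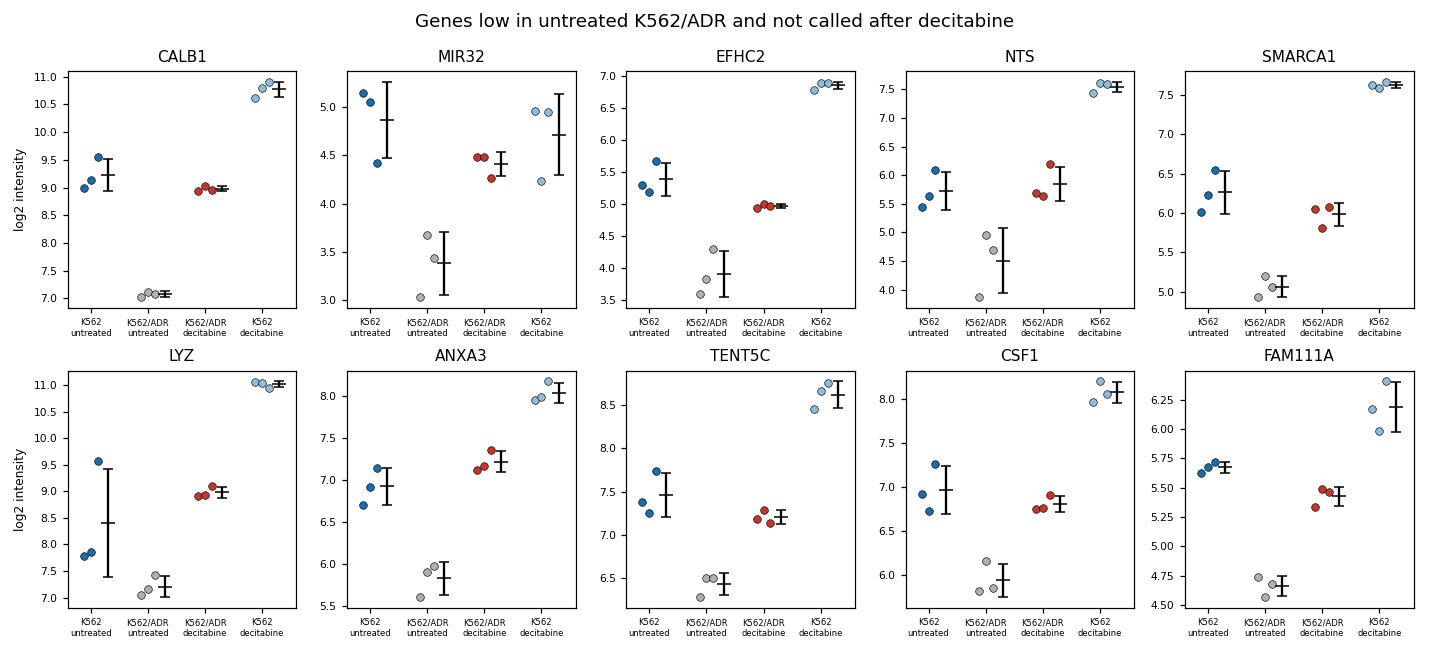
Levels (log2 intensity, y axes of different range) of the 10 genes that were lower in untreated K562/ADR and no longer called different from untreated K562 after decitabine; circles are arrays, bars the mean ± SD (n = 3). Treated K562/ADR arrays lie close to the untreated K562 arrays, and the third untreated K562 array of LYZ, at 9.57, lies above all treated K562/ADR arrays.

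Of the 61 genes that moved back only in part, 50 had started lower and 11 higher; the number was 40 without treated K562/ADR replicate 3 and 41 without untreated K562/ADR replicate 1. IQGAP2, a scaffold protein of the cytoskeleton, read 8.45, 8.62 and 8.63 in untreated K562, 4.12, 4.20 and 4.56 in untreated K562/ADR and 5.28, 5.25 and 4.97 in treated K562/ADR. It rose by 0.88 with decitabine (adjusted p = 0.000509) but remained 10.5-fold lower (-3.40 ± 0.11; adjusted p = 2.51e-10). IFITM3, an interferon-induced membrane protein that blocks virus entry, went from -1.90 to -1.42 ± 0.11. Among those that had started higher, DDIT4, a stress-induced inhibitor of mTORC1, went from 2.19 to 1.59 ± 0.10.

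New differences were those called by at least 1 in treated K562/ADR, not called between the untreated lines, and moved the same way by decitabine in K562/ADR: 79 genes, 67 higher and 12 lower. Higher ones had a median level of 4.66 in untreated K562, 4.80 in untreated K562/ADR, 5.97 in treated K562/ADR and 6.12 in treated K562. Lower ones had median levels of 9.0, 8.64, 7.71 and 7.17 in the same order. Without untreated K562 replicate 3 the number was 67, with 41 genes shared, which is 51.9% of the one list and 61.2% of the other. That a gene was not called between the untreated lines does not show that it was equal there.

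The largest new difference was in a germline gene, and 3 others were among the 10 largest. MAEL, a factor of piRNA-mediated transposon silencing, read 2.72, 2.59 and 3.91 in untreated K562, 3.14, 2.78 and 2.88 in untreated K562/ADR and 5.83, 6.03 and 6.37 in treated K562/ADR. The treated arrays stood apart from all 6 untreated ones, an at least 6.41-fold difference from untreated K562 (3.0 ± 0.27; adjusted p = 2.00e-06). GCNA, an acidic nuclear protein of germ cells, read 3.15, 2.95 and 4.85 in untreated K562 and 6.06, 5.84 and 5.71 in treated K562/ADR (2.22 ± 0.35; adjusted p = 0.000274). TKTL1, a transketolase-like protein, read 4.67, 4.39 and 6.62 against 7.80, 7.48 and 6.96 (2.19 ± 0.43; adjusted p = 0.00128; 2.88 without K562 replicate 3). HORMAD1, a meiotic chromosome axis protein, read 2.35, 2.31 and 4.49 against 5.01, 5.19 and 5.05, an at least 3.22-fold difference from a dim mean (adjusted p = 0.00178). In each of these 4 genes untreated K562 replicate 3 was the highest of its group and below every treated K562/ADR array. All 4 were also new without that array, and treated K562 read 5.31, 6.42, 8.56 and 6.06.

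Of 41 measured germline genes 21 were higher in treated K562/ADR and 1 lower (median 0.33; 24 and 1 without untreated K562 replicate 3, 20 and 4 after median centring), against 8 higher and 1 lower between the untreated lines (median 0.04). The called share was 53.7% against 34.2% of all genes, and 12 of the 41 were dim in both groups. Genes already high in untreated K562/ADR stayed so: MAGEC2 was 3.45 ± 0.07 higher and MAGEA1 2.66 ± 0.14 higher, and decitabine changed them in K562/ADR by 0.05 and -0.34, neither called. Members of the MAGE family are near-identical in places, and their clusters are uncertain.

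The promoters of 2 genes with new differences, GCNA and DUSP21, and of 2 that reached untreated K562, ANXA3 and NTS, are printed because the methylation that decitabine reduces lies at CG pairs. Each is the 250 bases before the annotated start in RefSeq (GRCh38.p14, plus strand, 5′ to 3′), with every CG, the letters searched, in capitals: GCNA at chrX:71578187-71578436, DUSP21 at chrX:44843771-44844020, ANXA3 at chr4:78551520-78551769 and NTS at chr12:85874045-85874294.
GCNA: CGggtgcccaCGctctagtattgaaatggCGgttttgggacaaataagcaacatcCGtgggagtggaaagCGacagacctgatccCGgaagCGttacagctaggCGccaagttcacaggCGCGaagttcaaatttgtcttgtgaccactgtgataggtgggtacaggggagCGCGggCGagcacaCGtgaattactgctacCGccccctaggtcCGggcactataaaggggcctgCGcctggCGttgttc
DUSP21: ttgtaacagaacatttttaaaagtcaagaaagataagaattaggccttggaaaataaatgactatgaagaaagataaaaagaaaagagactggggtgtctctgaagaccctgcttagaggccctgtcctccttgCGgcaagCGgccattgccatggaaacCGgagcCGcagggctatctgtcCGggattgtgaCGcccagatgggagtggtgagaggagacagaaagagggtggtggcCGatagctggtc
ANXA3: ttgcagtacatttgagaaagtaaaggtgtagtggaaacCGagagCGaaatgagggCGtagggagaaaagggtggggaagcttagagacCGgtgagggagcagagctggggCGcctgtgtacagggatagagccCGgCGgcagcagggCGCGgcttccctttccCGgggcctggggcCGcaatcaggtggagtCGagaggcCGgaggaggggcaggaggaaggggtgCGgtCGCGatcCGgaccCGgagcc
NTS: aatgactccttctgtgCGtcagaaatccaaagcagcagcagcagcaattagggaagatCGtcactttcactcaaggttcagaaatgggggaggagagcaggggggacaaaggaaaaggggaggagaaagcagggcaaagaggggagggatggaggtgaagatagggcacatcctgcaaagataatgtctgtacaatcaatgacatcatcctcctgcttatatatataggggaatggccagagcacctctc
They hold 18, 7, 18 and 2 CG pairs, and 52.3%, 76.2%, 52.3% and 92.0% of the 10501 promoters of tested genes with a single listed start hold at least as many. CG reads the same on both strands. Of 37 such promoters of new higher genes 54.1% held at least 10 CG pairs (median 10), against 71.1% of all 10501 (median 18); for genes kept higher the share was 74.5% of 137. Without untreated K562 replicate 3, DUSP21 no longer counted as new and ANXA3 no longer as reached. Methylation was not measured here, and the CG counts describe the letters in that window.

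Erythroid genes were among the new and widened differences. SLC4A1, the band 3 anion exchanger of red cells, read 4.98, 4.63 and 7.45 in untreated K562, 6.33, 6.32 and 6.40 in untreated K562/ADR and 8.08, 8.12 and 8.14 in treated K562/ADR. All treated K562/ADR arrays were above all untreated arrays of both lines (2.43 ± 0.50; adjusted p = 0.00196), but untreated K562 replicate 3 lay above every untreated K562/ADR array. Without it SLC4A1 was already 1.54 higher in untreated K562/ADR (adjusted p = 5.13e-07) and 3.31 higher after treatment, so it no longer counted as new. AHSP, the chaperone of free alpha globin, read 4.87, 4.60 and 6.35, then 5.74, 6.24 and 6.28, then 7.43, 7.28 and 7.72 (2.21 ± 0.34; adjusted p = 0.000199), and ALAS2, the first enzyme of erythroid haem synthesis, was 1.90 ± 0.31 higher. For both, too, a starting difference was called without K562 replicate 3 (1.35 and 1.42), and they then no longer counted as new. In treated K562, SLC4A1, AHSP and ALAS2 read 9.31, 7.66 and 10.5. In the limma fit none was called different between the treated lines (adjusted p = 0.102, 0.761 and 0.217).

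Of 38 measured erythroid genes 23 were higher in treated K562/ADR and 2 lower, with a median of 0.35 (20 and 5 after median centring). Over all genes 17.5% were higher and 16.6% lower. Between the untreated lines 13 of the 38 were higher and 3 lower (median 0.22). Decitabine raised 14 and lowered 2 of them in K562/ADR (median 0.17), and raised 26 and lowered 2 in K562 (median 0.45). CA1, the red-cell carbonic anhydrase, was 3.6 ± 0.35 higher and EPB42, a membrane skeleton protein, 2.39 ± 0.24 higher. HBZ, the embryonic zeta globin, was 0.57 ± 0.07 higher, and decitabine changed it in K562/ADR by -0.05 (adjusted p = 0.687). Of 25 megakaryocyte and platelet genes 6 were higher and 2 lower, with a median of -0.05 (6 and 3 after median centring). Their called share, 32%, was near the 34.2% of all genes, so the count does not set the list apart. ITGA2B, the alpha chain of the platelet fibrinogen receptor, went from 0.75 to 2.23 ± 0.09 above untreated K562, and its partner ITGB3 from -0.55 (adjusted p = 0.121) to 0.97 ± 0.24.

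Immune receptor genes were also found among the new differences. TNFRSF9, the costimulatory receptor 4-1BB, read 4.29, 4.13 and 5.31 in untreated K562, 4.63, 4.55 and 4.36 in untreated K562/ADR and 6.46, 6.66 and 6.57 in treated K562/ADR. Its treated arrays were above all 6 untreated ones (1.99 ± 0.23; adjusted p = 1.80e-05; 2.36 without K562 replicate 3), and it was new with or without that array. SLAMF6, a receptor of lymphocytes (2.09 ± 0.15), FOLR1, a folate receptor (1.93 ± 0.27), complement C3 (1.82 ± 0.33) and DUSP21, a testis phosphatase (2.26 ± 0.34), were new only with that array in the fit. S100P, a calcium-binding protein, read 5.63, 5.45 and 6.03 in untreated K562 and 7.25, 7.56 and 7.68 in treated K562/ADR (1.80 ± 0.15; adjusted p = 9.08e-07), with 5.59 in untreated K562/ADR. IFI16, a DNA sensor, was 1.39 ± 0.17 higher, while of 44 interferon-stimulated genes 5 were higher and 5 lower (5 and 13 after median centring). The called share of that list was 22.7% against 34.2% of all genes.

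**Figure D4:**
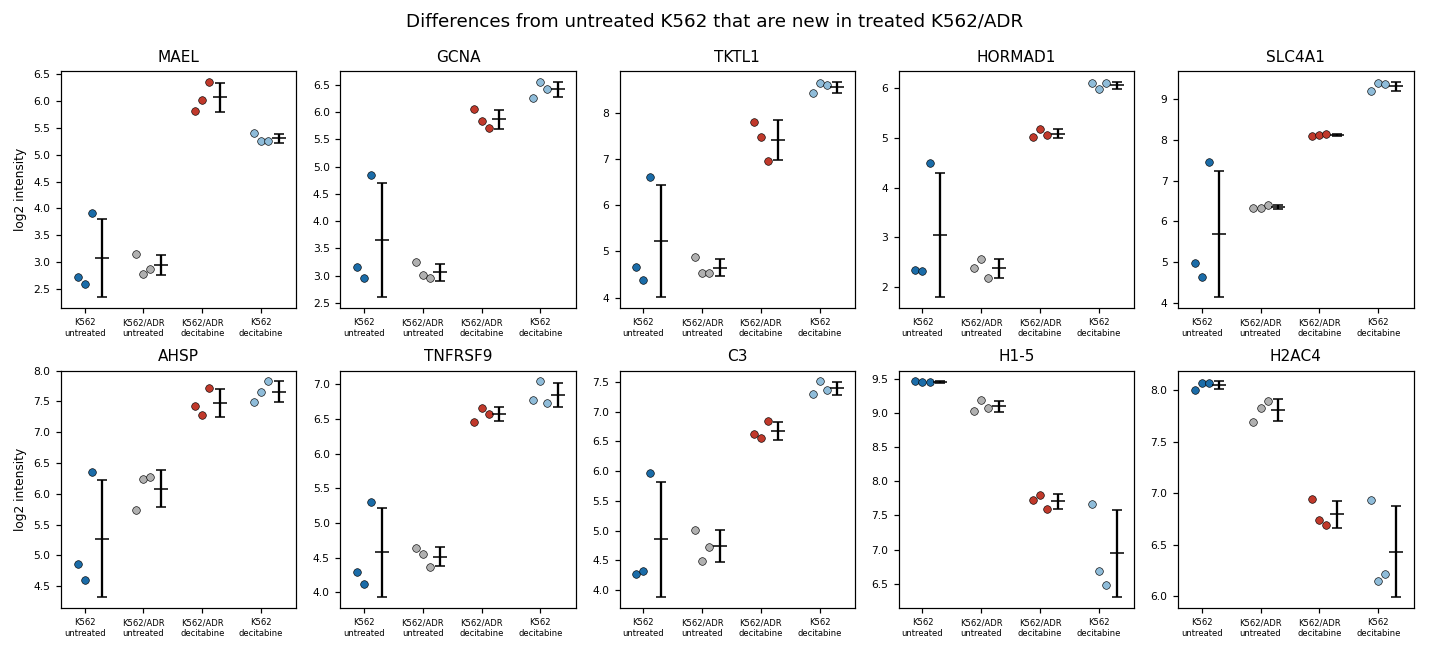
Levels (log2 intensity, y axes of different range) of 10 genes whose difference from untreated K562 was called after decitabine and not before; circles are arrays, bars the mean ± SD (n = 3). Treated K562/ADR stands above untreated K562 for the first 8 genes and below it for the histone genes H1-5 and H2AC4; the third untreated K562 array is the highest of its group for the first 8.

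The new losses were mainly replication-dependent histone genes, which are transcribed in S phase and lack poly(A) tails. H1-5, a linker histone, read 9.47, 9.46 and 9.46 in untreated K562, 9.03, 9.20 and 9.08 in untreated K562/ADR and 7.72, 7.80 and 7.59 in treated K562/ADR. The treated arrays were below all untreated ones, a 3.38-fold difference (-1.76 ± 0.22; adjusted p = 3.72e-05). H2AC4 read 8.01, 8.07 and 8.07 against 6.94, 6.74 and 6.69 (-1.26 ± 0.16; adjusted p = 5.03e-05), also with no overlap. H4C14 and H4C15, which share their values (-1.35 ± 0.21), H4C2 (-1.20 ± 0.16), H3C12 (-1.11 ± 0.16), H2AC21 (-1.08 ± 0.24) and H2AC8 (-1.05 ± 0.14) were new as well. Histone genes of a family are near-identical, so which copy was measured is uncertain.

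Of 48 measured replication histones 32 were lower and 4 higher, with a median of -0.49, against 6 lower and 2 higher between the untreated lines (median -0.15). The called share was 75% against 34.2% of all genes. H3C11 was an exception at 1.73 ± 0.23 higher. In treated K562 35 of the 48 were lower and 6 higher than in untreated K562, where 15.7% of all genes were lower and 14.6% higher. Other new losses were in SNORD15A, a small nucleolar RNA (-1.16 ± 0.09), and RNVU1-4, a variant U1 RNA with near-identical copies (-1.13 ± 0.16). Of 35 genes of DNA replication 11 were lower and 6 higher (16 and 4 after median centring). Between the untreated lines 13 of the 35 were already lower and 6 higher. The median was -0.10 there and -0.03 in treated K562/ADR. Decitabine lowered 4 of the 35 and raised 2 in K562/ADR. The lower genes included PCNA, the polymerase clamp (-0.80 ± 0.09), RFC3, its loader (-0.85 ± 0.07), POLA1, the primase polymerase (-0.85 ± 0.09), and GINS3 of the replicative helicase (-0.91 ± 0.11). Of 34 mitosis genes 13 were higher and 4 lower (9 and 5 after median centring, 10 and 5 without untreated K562 replicate 3). Between the untreated lines 4 of them were higher and 10 lower. NUF2, a kinetochore protein, was 0.79 ± 0.08 higher and CDC25C, a phosphatase that starts mitosis, 0.72 ± 0.10 higher. The called shares were 50% for mitosis and 48.6% for DNA replication genes, against 34.2% of all genes.

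Differences that were called at the start and widened numbered 275, 223 higher and 52 lower. IL20RB, a cytokine receptor chain, read 4.41, 4.56 and 4.62 in untreated K562 and 7.19, 7.82 and 8.24 in treated K562/ADR (3.22 ± 0.20; adjusted p = 8.19e-08), from 1.5 before decitabine. EGF read 3.30, 3.51 and 3.78 against 5.83, 5.86 and 6.40 (2.50 ± 0.17; adjusted p = 1.90e-07), from 0.92 before. For both, all treated K562/ADR arrays lay above all untreated K562 arrays. RASGRP3, an activator of Ras, was 2.24 ± 0.20 higher, from 0.61 before. Among the lower ones were UTP20, a ribosome biogenesis factor (-1.53 ± 0.11), H1-3 (-1.36 ± 0.15), the variant U1 RNA RNVU1-19 (-1.25 ± 0.11) and HSPE1, a mitochondrial chaperonin (-1.10 ± 0.08).

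Stress genes under ATF4 and of the unfolded protein response, which restore amino acid supply and protein folding under stress, were for the most part higher than in untreated K562. Of 34 measured 28 were higher and 1 lower, with a median of 0.59 (25 and 1 without untreated K562 replicate 3, 25 and 2 after median centring), against 14 higher and 5 lower between the untreated lines (median 0.21). DDIT3, the stress transcription factor CHOP, read 7.22, 7.0 and 7.17 in untreated K562, 8.13, 8.51 and 8.52 in untreated K562/ADR and 9.33, 9.35 and 9.52 in treated K562/ADR. The groups stepped up without overlap to a 4.81-fold difference (2.27 ± 0.12; adjusted p = 1.52e-08). ASNS, asparagine synthetase, was 1.90 ± 0.09 higher and SEL1L, of protein degradation at the endoplasmic reticulum, 1.47 ± 0.09 higher. The called share of the list was 85.3% against 34.2% of all genes. In treated K562 4 of the 34 genes were higher and 17 lower than in untreated K562.

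**Figure D5:**
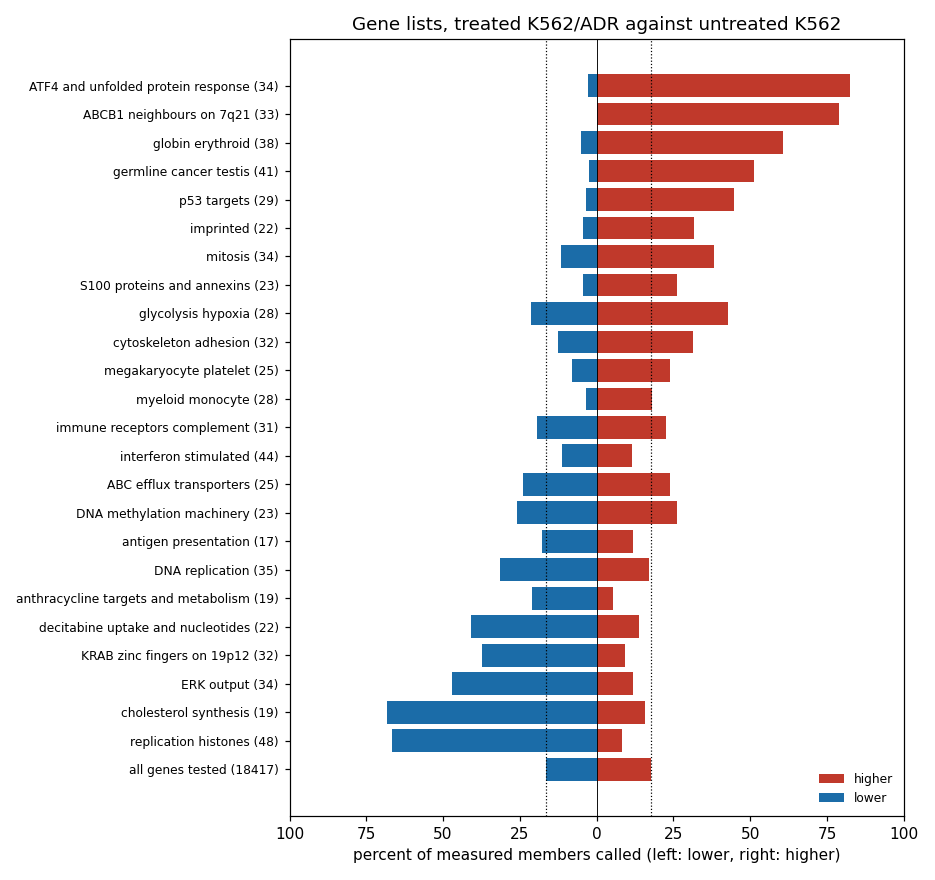
Percent of measured members of each gene list called lower (left, blue) and higher (right, red) in treated K562/ADR against untreated K562, with the number measured in parentheses; dotted lines mark the shares over all 18417 genes, 16.6% lower and 17.5% higher. ATF4 and unfolded protein response genes and the neighbours of ABCB1 lie farthest to the right, replication histones and cholesterol synthesis genes farthest to the left.

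Cholesterol synthesis genes were for the most part lower, with a called share of 84.2% against 34.2% of all genes. Of 19 cholesterol synthesis genes 13 were lower and 3 higher (median -0.39; 14 and 2 after median centring). Between the untreated lines 11 of the 19 were already lower and 1 higher (median -0.30). Decitabine lowered 4 of the 19 and raised 2 in K562/ADR. MSMO1, a sterol oxidase, was at -0.77 ± 0.10 and IDI1, an isoprenoid isomerase, at -0.66 ± 0.09 in treated K562/ADR. Of 28 measured glycolysis and hypoxia genes 18 were higher and 1 lower between the untreated lines (median 0.32), and 12 were higher and 6 lower in treated K562/ADR (median 0.07, and -0.03 after median centring). The called share of the glycolysis and hypoxia genes in treated K562/ADR was 64.3%. NDRG1, a hypoxia-induced protein, remained 1.55 ± 0.11 higher and P4HA1, a collagen prolyl hydroxylase, 1.13 ± 0.11 higher. Of 29 p53 target genes 13 were higher and 1 lower (12 and 6 after median centring), a called share of 48.3%. They were led by GDF15, a stress cytokine, at 1.89 ± 0.07 and TP53INP1 at 1.09 ± 0.23 (1.47 without untreated K562 replicate 3). TNFRSF10B, a death receptor, was at 0.99 ± 0.07. K562 is known to lack functional p53. Of 22 imprinted genes 7 were higher and 1 lower (6 and 3 after median centring), a called share of 36.4%, near that of all genes. The Ras-like growth suppressor DIRAS3 was 2.27 ± 0.14 higher.

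The called share was 34.2% over all genes, against 43.8% for cytoskeleton and adhesion genes and 41.9% for immune receptors and complement. It was 30.4% for S100 proteins and annexins, 21.4% for myeloid genes and 29.4% for antigen presentation. The lymphoid, epithelial, and fibroblast and endothelial marker lists had shares of 13.3% to 33.3%. A longer list of K562 line markers had 58.3%, with 6 higher and 1 lower of 12 measured (4 and 2 after median centring). A share at or below that of all genes does not set a list apart. Cytoskeleton and adhesion genes counted 10 higher and 4 lower of 32 (8 and 7 after median centring). CD44, the hyaluronan receptor, was 1.72 ± 0.08 higher. S100 proteins and annexins counted 6 higher and 1 lower of 23, with ANXA4 at 0.87 ± 0.11. The counts were 6 and 3 after median centring, and 9 and 1 without untreated K562 replicate 3. Myeloid and monocyte genes counted 5 higher and 1 lower of 28 (5 and 5 after median centring), with CD68 at 1.24 ± 0.11. Immune receptors and complement counted 7 and 6 of 31 (4 and 8 after median centring, 9 and 6 without untreated K562 replicate 3). Antigen presentation genes counted 2 and 3 of 17 (1 and 6 after median centring). Lymphoid markers counted 3 higher and 1 lower of 14, epithelial markers 2 and 2 of 12 (1 and 2 after median centring), and fibroblast and endothelial markers 1 and 1 of 15 (1 and 2).

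The decitabine response was compared between the lines by the interaction in the same fit. It was called for 16 of the 79 new genes (12 of the 67 higher and 4 of the 12 lower), where 6.74% of all genes were called. Set against treated K562, 23 of the 67 new higher genes stood above and 5 below in treated K562/ADR, where 15.1% of all genes stood above and 11.9% below. The new genes were chosen by their response in K562/ADR and their level on the treated arrays, so nothing is read from either count. MAEL was 0.77 higher in treated K562/ADR than in treated K562 (adjusted p = 0.0487), and S100P 0.67 higher (adjusted p = 0.00358). GCNA (-0.55; adjusted p = 0.309) and SLAMF6 (-0.31; adjusted p = 0.166) were not called. ABCB1 remained 7.91 higher than in treated K562 (adjusted p = 1.70e-12).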

How the data were processed

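RNA from 12 cell samples was labelled as biotinylated cRNA and hybridised to Affymetrix arrays, per the labels' protocols. The authors deposited log2 intensities; background correction, summarization and normalization are not given in the sources used here, and no scaling was added. Of 33297 transcript clusters 19460 carry 1 gene symbol, 1754 several and 12083 none, per the platform annotation; 19429 of the first matched a RefSeq gene. Where a gene had several clusters the brightest was used, giving 18417 genes.

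All 12 arrays entered one fit of the 4 group means with limma 3.58.1 (R 4.3.3; 4.71 prior and 8 residual degrees of freedom). P-values were adjusted over all genes by Benjamini-Hochberg, and genes were called at an adjusted p under 0.05. The fit code was also run on simulated data with independent normal noise, a check of the code and not of the results. The number of arrays limits the precision. SE is the standard error of a difference. Members, lists and rules were chosen with earlier results of these data known. Genes named are the drug-related genes fixed by name, the 12 largest non-overlapping differences each way, the leading 8 reached, 10 new and 5 widened genes each way, and up to 4 called members per list; S100P and IFI16 entered as list members. Lists got no test of their own. Alternatives were single arrays left out, scaling, dim genes, cluster choice, the replicate block and the variance model. Figures used matplotlib 3.10.9 in Python 3.11.15.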

Additional observations from a re-analysis of the deposited data

Results flagged for a closer look

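For 39 of the 158 genes that the naming rule selects, the response to decitabine differed between the lines by the interaction in the limma fit over all genes (response in K562/ADR minus response in K562, log2, with its SE). Across all genes 6.74% were called, and the naming rule used contrasts that share arrays with the interaction, so nothing is read from the number. No cause of these differences was tested.

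TXNIP had the smallest p of the 39, with an interaction of -1.02 ± 0.09 (adjusted p = 0.000822): decitabine changed it by -0.88 in K562/ADR and by 0.14 in K562. ABCB4 followed with 1.48 ± 0.18 (adjusted p = 0.00194; 1.40 in K562/ADR and -0.08 in K562). Other genes raised in K562/ADR and not called in K562 were RUNDC3B (1.74 ± 0.31; adjusted p = 0.00926), EGF (1.58 ± 0.24; adjusted p = 0.00394), SEL1L (0.89 ± 0.13; adjusted p = 0.00289) and DIRAS3 (0.80 ± 0.20; adjusted p = 0.0336). The interaction was 1.32 for IL20RB, 0.93 for IFI16, 0.65 for ASNS, 0.50 for CDC20, 0.45 for IDH1 and 0.41 for GDF15, and 1.18 for the cluster named MIR32, which was dim in untreated K562/ADR. S100P (0.78), ANPEP (0.56) and ITGA2B (0.50) were raised in both lines, and more in K562/ADR.

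A second set was lowered in K562 and less, or not, in K562/ADR. EGR1 differed by 1.81 ± 0.35 (adjusted p = 0.0119; -0.26 in K562/ADR and -2.07 in K562), FOS by 1.66 ± 0.24 (adjusted p = 0.00289; -0.06 and -1.73) and EREG by 1.60 ± 0.28 (adjusted p = 0.00847; -0.11 and -1.71). Of the histone genes, H4C2 differed by 1.20, H1-5 by 1.12, H2AC8 by 0.92, H1-3 by 0.80 and H2BC9 by 0.76. UTP20 differed by 0.67, the replication gene GINS3 by 0.66 and DNMT3B by 0.43.

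The remaining genes had negative interactions. CD226 rose by 1.35 in K562/ADR and by 2.87 in K562 (-1.51 ± 0.30; adjusted p = 0.0125), and IDH2 by 0.58 and 1.62 (-1.05 ± 0.22; adjusted p = 0.0155). The interaction was -1.01 for P4HA1, -0.90 for TUBB1, -0.80 for SSX1, -0.77 for SDC2, -0.62 for CD36, -0.58 for ELAPOR2, -0.57 for MAGEC2, -0.53 for HBZ and -0.40 for PLAGL1. SNORD15A was lowered in both lines, and more in K562/ADR (-0.56 ± 0.13; adjusted p = 0.0263).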

How the results depend on the processing

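Genes called between treated K562/ADR and untreated K562 numbered 5427 to 6349 with single arrays left out, 7041 after median centring and 6576 after quantile normalization, against 6291. Asking for a difference of at least 0.5 gave 2743 genes and of at least 2 gave 152, by construction. Genes called between treated and untreated K562/ADR numbered 1653 (without treated replicate 3) to 3020 (without untreated K562 replicate 3), and 1706 and 1725 without untreated K562/ADR replicates 1 and 2, against 2694. Genes that reached untreated K562 numbered 4 to 11 with single arrays left out, 5 after median centring and 6 after quantile normalization, against 10; the cause was not tested. Starting differences no longer called numbered 6 to 14 with single arrays left out and 7 after median centring, against 13. Genes that moved back in part numbered 40 (without treated K562/ADR replicate 3) to 64, against 61. Kept genes numbered 354 to 410, new genes 65 to 96 and widened genes 196 to 370 with single arrays left out.

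Of the 158 named genes, 138 kept their direction and call under all 16 alternative settings run. Of their other values 27 lost and 32 gained a call. The sign turned for the gene CDA (-0.0122 after median centring), the gene DNMT3B (0.00469 without untreated K562 replicate 1, 0.0157 without treated K562/ADR replicate 3) and the gene NTS (-0.0205 without untreated K562 replicate 1, -0.0526 without treated K562/ADR replicate 3) with none called; single arrays left out gave -0.123 to 0.0157 for DNMT3B and -0.0526 to 0.306 for NTS, and the cause was not tested.

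Deviations of equally numbered arrays from their group means correlated at -0.26 to 0.19 across genes, against -0.27 to 0.26 for arrays of unequal number. With 3 arrays a group, these values cannot show whether equal replicate numbers pair the samples. With the replicate number as a block, 5914 genes were called between treated K562/ADR and untreated K562, and 368 were kept, 8 reached, 74 new and 265 widened.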

Other observations

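Clusters without exactly 1 gene name were tested apart. Of 13837, 607 were higher and 1321 lower in treated K562/ADR than in untreated K562, 100 and 409 of them by at least 1. They are unnamed here and enter no gene list.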
